A study of Homo sapiens with 5 samples.

Results

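The genes described here are 34 neuronal and synaptic genes and REST, the repressor that keeps many such genes silent outside the nervous system. They were picked by name and not by a cut on any measured value, though earlier results of these data were known. Each was read from the brightest of its probe sets on the array. A probe set is a group of short oligonucleotides against transcript sequence, summarised as 1 value. All 35 were measured, among 19775 genes in all. The samples were MDA-MB-231 cells, an established human breast cancer line, profiled as total RNA on 5 single-colour Affymetrix U133 Plus 2.0 arrays. There were 2 arrays of cells given 2 uM SAHA and 3 arrays of cells given its vehicle DMSO, both for 30 h. The labels name no other genotype or agent, although their extraction text speaks of a transfection that no other label describes. No label ties the replicates to separate cultures, and the p-values therefore reflect array-to-array spread alone, which may be technical.

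REST binds a DNA element called RE1, made of a left and a right part, near many neuronal genes. It recruits corepressor complexes that contain the histone deacetylases HDAC1 and HDAC2, together with SIN3A or RCOR1, the demethylase KDM1A and the methyltransferase EHMT2. SAHA, also called vorinostat, inhibits histone deacetylases, so the comparison asks which of these genes change when deacetylation is blocked. The genes themselves encode proteins of synaptic vesicles, the SNARE machinery that fuses those vesicles, adhesion molecules across the synaptic cleft, and the neuronal cytoskeleton.

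RE1-like letters were looked for in the RefSeq promoter table (build GRCh38.p14), which held 25 of the 35 genes. Each window ran from 250 bases before to 50 bases after the gene start, with 1 start read per gene. The letters TTCAGCACC, the left part of RE1, stood on either strand in 1 of the 25 windows and in 0.403% of all 27305 windows. The letters GGACAGC, from the right part, stood in 1 of the 25 and in 6.11% of all. The 2 windows are shown because they hold these letters, and were picked after the search. The SYN1 match lies 233 bases before the start and the GAP43 match 97 bases before the start, each on the gene's own strand. The printed stretches are chrX:47620057-47620107 on the minus strand for SYN1 and chr3:115623388-115623444 on the plus strand for GAP43, with the matched letters in capitals.
SYN1: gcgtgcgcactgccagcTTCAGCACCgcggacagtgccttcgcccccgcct
GAP43: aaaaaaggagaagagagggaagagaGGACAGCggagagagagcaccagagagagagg
In the SYN1 window the left part is followed by gc and then ggacagt. Those letters differ from the searched GGACAGC in the last letter only, so they were not counted as a right part. A match is a description of letters and not of binding, and a window without one says only that these letters are not there. SYN1 encodes synapsin, which tethers synaptic vesicles, and GAP43 a growth cone protein. SYN1 had 6.22 and 6.23 in SAHA, against 6.34, 6.16 and 6.23 in DMSO, as log2 intensity (the deposited intensity after taking log2). GAP43 had 5.62 and 5.75 in SAHA, against 5.82, 5.75 and 5.72 in DMSO. The groups overlapped for both genes, and neither passed the test described next.

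Of the 35 genes, 6 were higher in SAHA and 1 was lower, while 28 did not pass the test. The 6 were MAP2, SYT13, MAPT, SYT11, SYT1 and SYP, and the gene that fell was NLGN1. Calls are adjusted p under 0.05 in limma's moderated test, with Benjamini-Hochberg adjustment over all 19775 genes. Called members made up 20% of the list, against 29.6% of all genes, with 14% of all genes higher and 15.6% lower in SAHA. The median log2 fold (SAHA over DMSO) was -0.02 over the 35 genes and -0.03 over all genes. Both SAHA arrays lay above all DMSO arrays for 7 genes and below them for 4, and the groups overlapped for 24. Across all genes 48.1% had groups that did not overlap, 22.1% with SAHA above and 26% with SAHA below. The count of higher members was 3 without DMSO 1, 4 without DMSO 2 and 3 without DMSO 3, against 2075, 1834 and 1769 of all genes. Leaving out either SAHA array leaves 1 SAHA array. Without SAHA 2, the log2 folds of SV2A, SYT4, NRXN3 and NEFH were -0.23, -0.21, -0.28 and -0.19. Each of these rests on SAHA 1 alone, against DMSO values partly equal between arrays.

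The scale against which a gene is read mattered for the direction of small differences. The 24 poly-A control probe sets, which report control RNAs rather than cell transcripts, were higher in SAHA by a median of 0.39 on the log2 scale, and each of the 24 averaged higher. With arrays centred on those controls the median of all genes was -0.40, and 1361 of the 19775 genes were higher and 14548 lower. Of the 35 members, 4 were then higher (MAP2, MAPT, SYT11 and SYT13) and 25 lower. The part of the control RNAs in these values was not tested. All changes below are relative to the deposited scale, except where another setting is named. Counts with poly-A centring are to be read against the counts of all genes on that scale.

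**Figure D1:**
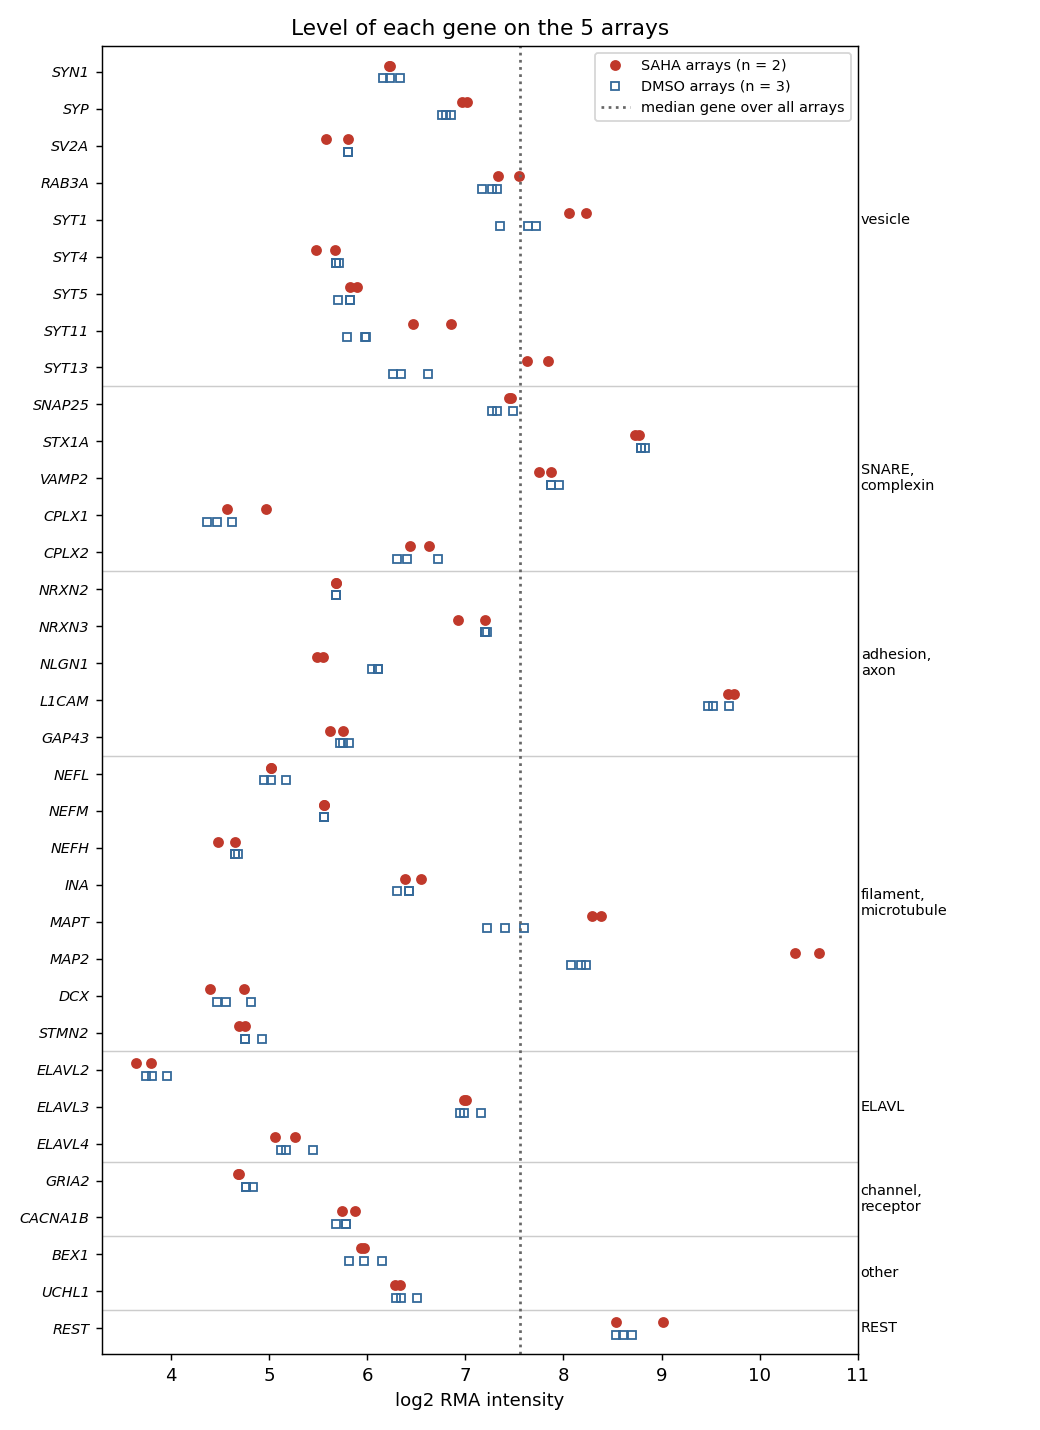
The log2 RMA intensity of each of the 35 genes (horizontal axis) on the 2 SAHA arrays (filled circles) and 3 DMSO arrays (open squares), grouped by role, with the median gene over all arrays as a dotted line. MAP2 stands furthest apart, with 10.36 and above in SAHA and 8.23 and below in DMSO.

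MAP2, a microtubule-associated protein of dendrites, rose more than any other member. Its log2 intensity was 10.61 and 10.36 in SAHA, against 8.18, 8.08 and 8.23 in DMSO. Every SAHA value lay above every DMSO value by more than the spread within either group. The log2 fold was 2.32 ± 0.09 (SE, n = 2 SAHA and 3 DMSO arrays), a 5.00-fold rise with adjusted p = 0.000554 in limma. In a bulk sample, more cells that express MAP2 and more MAP2 RNA per cell cannot be told apart. A second MAP2 probe set had 7.98 and 7.98 in SAHA, against 6.70, 6.79 and 6.88 in DMSO, a log2 fold of 1.19 with adjusted p = 0.00154 in a limma fit over all probe sets. MAP2 was called in all 17 alternative settings tried, with log2 folds between 1.76 and 2.45.

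MAPT encodes tau, the microtubule-associated protein of axons. It had 8.38 and 8.29 in SAHA, against 7.60, 7.22 and 7.41 in DMSO. The groups did not overlap, and the log2 fold was 0.93 ± 0.12 (SE), a 1.90-fold rise with adjusted p = 0.00617 in limma. Of its 6 probe sets, 4 were called higher, with log2 folds of 0.93, 0.87, 0.61 and 1.34, and the 2 others gave 0.11 and -0.02. The adjusted p was 0.0722 without SAHA 1 and 0.0559 without SAHA 2. The other microtubule and filament genes did not pass. NEFL, NEFM and NEFH, the light, medium and heavy neurofilament subunits, had log2 folds of -0.03, 0 and -0.10. INA, the filament protein alpha-internexin, had 0.08, DCX, the microtubule protein doublecortin of migrating neurons, -0.04, and STMN2, a tubulin-binding protein of growing axons, -0.09. In this group 2 of 8 genes were higher and 0 lower, against 14% and 15.6% of all genes, while centring on the poly-A controls gave 2 higher and 6 lower. NEFM held 1 and the same value, 5.56, on all 5 arrays.

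Among the 9 synaptic vesicle proteins 4 were higher and 0 lower, against 14% and 15.6% of all genes, and centring on the poly-A controls gave 2 higher and 4 lower. SYT13, a synaptotagmin that does not act as a calcium sensor, changed most. It had 7.85 and 7.62 in SAHA, against 6.62, 6.26 and 6.34 in DMSO. The groups did not overlap, and the log2 fold was 1.33 ± 0.14 (SE), a 2.51-fold rise with adjusted p = 0.00317 in limma. The call was kept in all 17 alternatives, the log2 fold falling to 0.65 where probe sets were averaged. A second SYT13 probe set differed by -0.04 on the log2 scale with adjusted p = 0.564.

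SYT11, a synaptotagmin linked to vesicle membrane traffic, had 6.46 and 6.85 in SAHA, against 5.80, 5.98 and 5.98 in DMSO. Both SAHA arrays lay above the 3 DMSO arrays. The log2 fold was 0.74 ± 0.14 (SE), 1.67-fold, with adjusted p = 0.0177 in limma. It missed the threshold without SAHA 2 (adjusted p = 0.0571) and without any 1 of the DMSO arrays (0.0704, 0.0731 and 0.0744), and the log2 fold was 0.37 with poly-A centring. SYT11 had a second probe set with a log2 fold of 1.20 and adjusted p = 0.00415, and a further one with -0.02 and 0.845.

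SYT1, the calcium sensor of fast transmitter release, had 8.23 and 8.06 in SAHA, against 7.64, 7.35 and 7.72 in DMSO. The lower SAHA value lay above the highest DMSO value. The log2 fold was 0.57 ± 0.13 (SE), 1.49-fold, with adjusted p = 0.0344 in limma. That call was lost without SAHA 1 (0.201), SAHA 2 (0.111), DMSO 1 (0.0957) or DMSO 3 (0.0675), with array weights (0.0724) and with poly-A centring (log2 fold 0.20, adjusted p = 0.155). A second SYT1 probe set had overlapping groups and a log2 fold of 0.41, with adjusted p = 0.289 in the limma fit over probe sets. SYP, or synaptophysin, an abundant vesicle membrane protein, had 6.97 and 7.02 in SAHA, against 6.86, 6.81 and 6.76 in DMSO. Its groups did not overlap but lay close, with a log2 fold of 0.19 ± 0.05 (SE), 1.14-fold, and adjusted p = 0.0453 in limma. SYP kept its call in 3 of 17 alternatives and in none that left out an array, and had -0.18 with poly-A centring (adjusted p = 0.177).

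The other 5 vesicle genes did not pass. RAB3A, a small GTPase of vesicle docking, had 7.34 and 7.55 in SAHA, against 7.33, 7.17 and 7.27 in DMSO. Its groups did not overlap, and the log2 fold was 0.19 with adjusted p = 0.205 in limma. SYN1 had a log2 fold of -0.02, SYT4, a synaptotagmin, -0.12, and SYT5, another synaptotagmin, 0.08. SV2A, a vesicle glycoprotein and the target of the antiepileptic drug levetiracetam, had 5.58 on SAHA 1 and 5.81 on SAHA 2 and the 3 DMSO arrays, a log2 fold of -0.11.

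**Figure D2:**
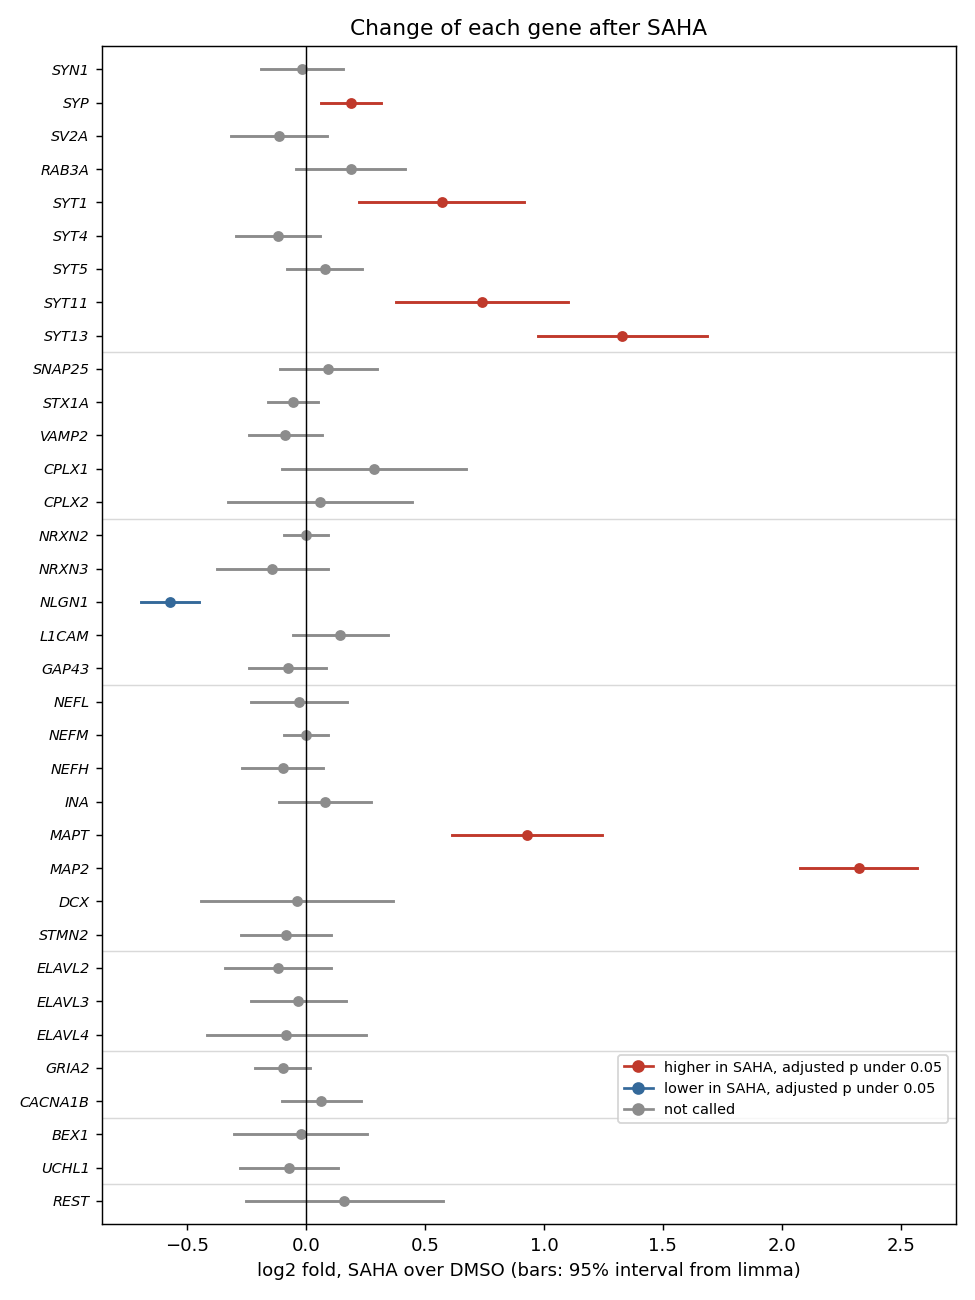
Log2 fold, SAHA over DMSO, of each of the 35 genes (horizontal axis), with bars for the 95% interval of the limma fit over 2 SAHA and 3 DMSO arrays, and filled colours for genes past the threshold. MAP2 at 2.32 and SYT13 at 1.33 lie furthest to the right, and NLGN1 at -0.57 furthest to the left.

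Only 1 start per gene was read, and the starts read for MAP2, SYT11, SYT1 and REST differ in base composition. The 250 bases before each start, from the RefSeq table on GRCh38.p14, are shown because 3 of these genes rose and REST is the repressor of the set. Capitals mark the GC box GGGCGG, found on either strand in 13 of the 25 member windows and in 44.6% of all windows. The stretches are chr2:209661246-209661495 for MAP2, chr1:155859317-155859566 for SYT11, chr12:78864524-78864773 for SYT1 and chr4:56907650-56907899 for REST, all on the plus strand.
MAP2: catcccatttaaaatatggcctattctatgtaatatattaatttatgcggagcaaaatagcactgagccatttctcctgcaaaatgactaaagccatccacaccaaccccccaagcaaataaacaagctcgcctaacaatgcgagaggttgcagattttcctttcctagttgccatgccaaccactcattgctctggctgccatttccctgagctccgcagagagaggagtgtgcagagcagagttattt
SYT11: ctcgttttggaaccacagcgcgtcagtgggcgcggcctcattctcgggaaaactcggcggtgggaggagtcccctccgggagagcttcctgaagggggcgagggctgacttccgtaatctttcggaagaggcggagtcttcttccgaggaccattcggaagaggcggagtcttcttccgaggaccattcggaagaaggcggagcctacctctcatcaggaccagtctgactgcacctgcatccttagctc
SYT1: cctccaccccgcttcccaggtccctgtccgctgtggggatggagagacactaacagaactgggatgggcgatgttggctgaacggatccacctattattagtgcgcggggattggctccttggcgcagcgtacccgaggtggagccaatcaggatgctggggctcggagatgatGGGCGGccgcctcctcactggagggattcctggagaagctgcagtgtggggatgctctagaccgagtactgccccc
REST: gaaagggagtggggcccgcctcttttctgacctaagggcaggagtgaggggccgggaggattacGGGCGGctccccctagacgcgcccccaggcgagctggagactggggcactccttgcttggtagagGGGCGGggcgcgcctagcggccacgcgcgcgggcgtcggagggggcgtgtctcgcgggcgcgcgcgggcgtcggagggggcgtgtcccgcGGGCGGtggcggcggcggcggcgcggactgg
The printed MAP2 bases hold 4 CpG dinucleotides and no GC box. SYT11 has 19 CpG dinucleotides and no GC box, SYT1 13 and 1 box, and REST 36 and 3 boxes. Over whole windows the median was 22 CpG dinucleotides in the 25 member windows and 14 in all windows. SYT13, MAPT and SNAP25 have no entry in that table.

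NLGN1, neuroligin, a postsynaptic adhesion protein that binds neurexins, was lower in SAHA. It had 5.55 and 5.49 in SAHA, against 6.11, 6.11 and 6.04 in DMSO. The SAHA values lay below the DMSO values with little spread in either group, and the log2 fold was -0.57 ± 0.05 (SE) with adjusted p = 0.00184 in limma. A second NLGN1 probe set had a log2 fold of -1.15 and adjusted p = 0.00529. The call was kept in all 16 alternatives that measured NLGN1, with log2 folds between -1.15 and -0.30. Its binding partners NRXN2 and NRXN3, both neurexins, had log2 folds of 0 and -0.14 and did not pass. NRXN2 read 5.69 on all 5 arrays. L1CAM, an axonal adhesion molecule, had 9.68 and 9.74 in SAHA, against 9.68, 9.48 and 9.53 in DMSO, so the groups overlapped, with a log2 fold of 0.14. Of the 5 adhesion and axon growth genes 1 was lower and 0 higher, against 15.6% and 14% of all genes, while poly-A centring gave 4 lower.

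The SNARE proteins and complexins, which drive and clamp vesicle fusion, gave 0 called genes of 5, against 29.6% of all genes, and 4 lower with poly-A centring. The SNAREs STX1A, on the plasma membrane, and VAMP2, on the vesicle, had log2 folds of -0.06 and -0.09. The complexins CPLX1 and CPLX2 had 0.29 and 0.06. SNAP25, the plasma membrane SNARE, had 7.44 and 7.47 in SAHA, against 7.33, 7.49 and 7.27 in DMSO on its brightest probe set, a log2 fold of 0.09 with adjusted p = 0.432 in limma. The groups overlapped there, yet did not on another SNAP25 probe set, described after its values were seen. That probe set had 6.90 and 7.24 in SAHA, against 6.04, 5.47 and 5.99 in DMSO, a log2 fold of 1.24 with adjusted p = 0.0227 in the limma fit over probe sets. A further one had a log2 fold of 0.54 with adjusted p = 0.0417. SNAP25 was accordingly called higher where probe sets were averaged (0.62, adjusted p = 0.00462), where the most variable probe set stood for the gene (1.24, 0.0114) and where shared-sequence probe sets were left out (0.54, 0.0371), and lower with poly-A centring (-0.28, 0.0409).

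**Figure D3:**
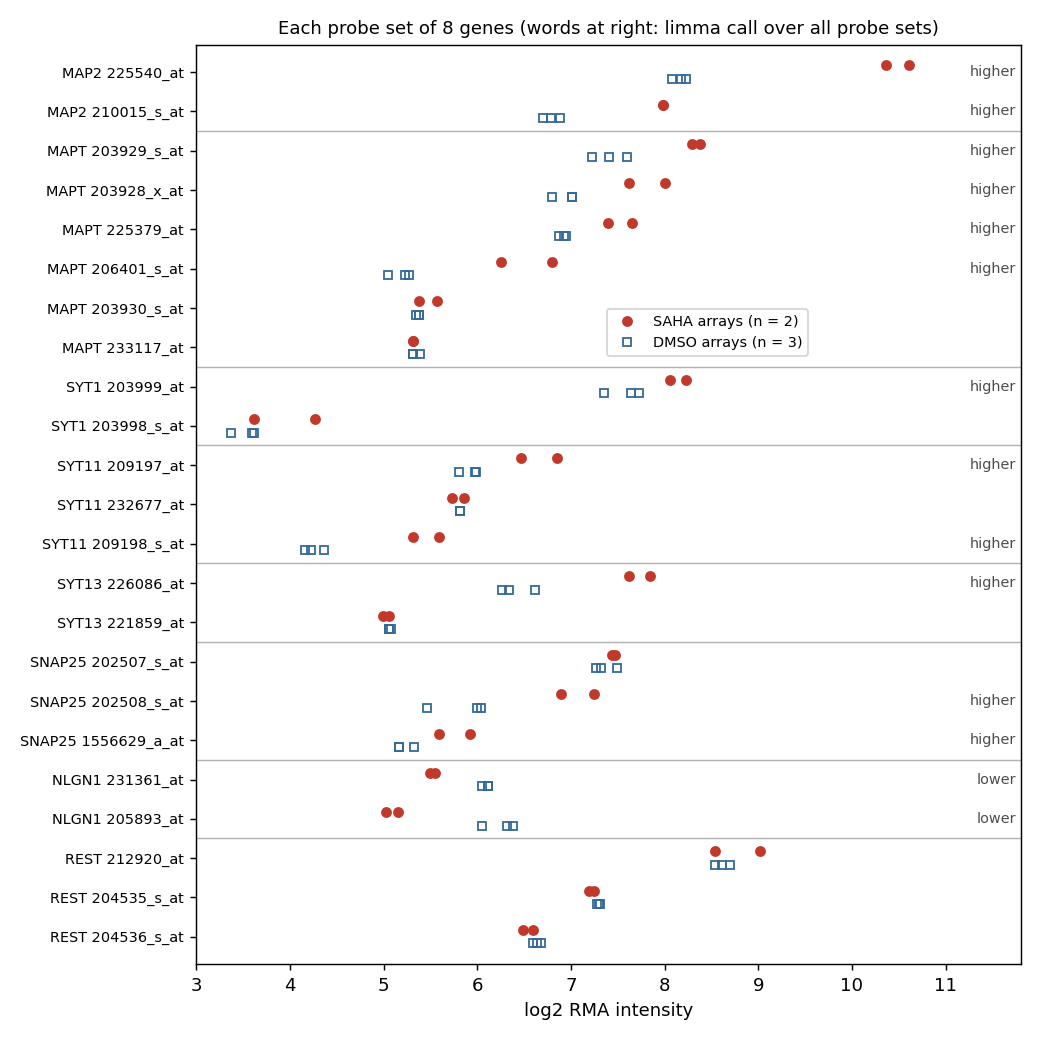
Log2 intensity on the 2 SAHA arrays (filled circles) and 3 DMSO arrays (open squares) for every probe set of REST and of the 7 members with a called probe set, with the direction of each call at the right. MAPT has 4 called probe sets of 6, and SNAP25 is called on probe sets other than its brightest.

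The 35 genes had 78 probe sets, and 27 genes had more than 1. Of the 78, 12 were higher and 2 lower, against 22.1% of all 41091 single-gene probe sets called in either direction, 11% higher and 11.1% lower. The called probe sets belonged to MAP2, MAPT, SYT1, SYT11, SYT13, SNAP25 and NLGN1. SYP, which has 1 probe set, was not called in the limma fit over probe sets (adjusted p = 0.0571). No member had probe sets called in opposite directions.

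The remaining members did not pass. ELAVL2, ELAVL3 and ELAVL4, neuronal RNA-binding proteins, had log2 folds of -0.12, -0.03 and -0.08. The AMPA receptor subunit GRIA2 had -0.10, and CACNA1B, the pore of the N-type calcium channel, 0.06. UCHL1, a neuronal ubiquitin hydrolase, had -0.07, and BEX1, a small neuronal protein, -0.02. GRIA2 had 4.68 and 4.70 in SAHA, against 4.77, 4.84 and 4.77 in DMSO, so its groups did not overlap, with adjusted p = 0.181 in limma. With poly-A centring these 7 genes were each called lower. Over the 28 genes that did not pass, log2 folds ran from -0.14 to 0.29, and each 95% interval lay within a 2-fold change either way, the widest bounds being -0.44 and 0.67. These intervals cover the brightest probe set alone, and another SNAP25 probe set had a log2 fold of 1.24. NEFM and NRXN2 had equal values on all 5 arrays, so their intervals rest on spread borrowed from other genes. Signal over background of dim genes is unknown, so the intervals do not bound the change in RNA.

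REST itself did not pass. It had 9.02 and 8.53 in SAHA, against 8.61, 8.70 and 8.53 in DMSO. SAHA 1 was the highest of the 5 arrays and SAHA 2 equalled DMSO 3, so the groups overlapped. The log2 fold was 0.16 ± 0.16 (SE) with a 95% interval of -0.25 to 0.57 and adjusted p = 0.508 in limma. Its 2 other probe sets had log2 folds of -0.08 and -0.10, with adjusted p = 0.288 and 0.312. The value turned with the array left out, to -0.08 without SAHA 1 and 0.40 without SAHA 2, and was -0.21 with poly-A centring, and no setting tried gave a call.

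Most members were read from dim probe sets. Mean signal lay below the median gene in 28 of the 35, of which 4 were called, and at or above it in 7, of which 3 were called. Across all genes 10.7% of those below the median and 48.2% of those at or above it were called. Equal values on 3 or more arrays, as in NEFM, NRXN2 and SV2A, were seen in 7 members and in 20.9% of all genes, and none of those 7 was called. Over the 35 genes, Spearman's rho between mean signal and absolute log2 fold was 0.32, a description of genes that share 5 arrays and differ in probe sequence. Probe sets differ in brightness for the same RNA, so signals of different genes do not rank their transcripts.

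**Figure D4:**
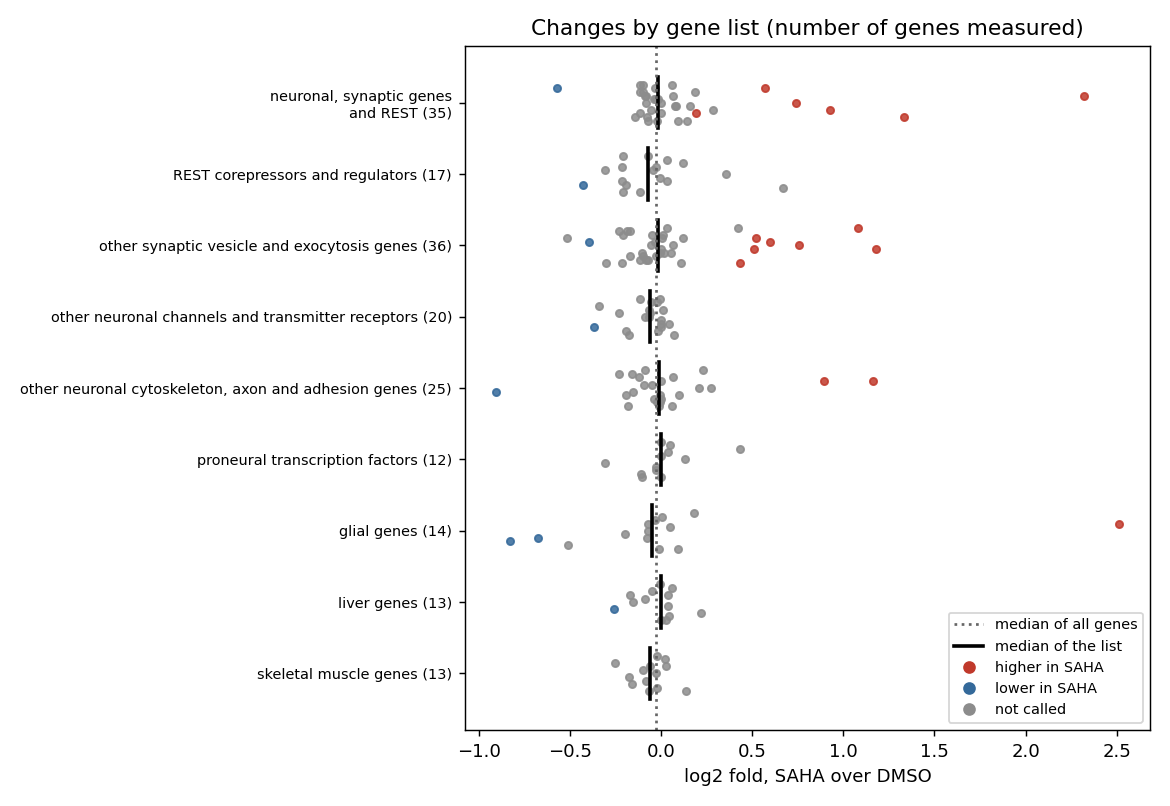
Log2 fold, SAHA over DMSO, of each measured gene (points) in the 35-gene set and 8 other lists, with the median of each list (bar) and of all genes (dotted line). List medians lie near the median of all genes, while MAP2 at 2.32 and the glial gene SLC1A3 at 2.52 lie furthest to the right.

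The partners of REST were read next. Of 17 measured corepressor and regulator genes, 0 were higher and 1 was lower, 5.88% against 29.6% of all genes, with a median log2 fold of -0.07. At an unadjusted p under 0.05 in limma were 7 of the 17, against 7587 of all 19775 genes. Both SAHA arrays lay above all DMSO arrays for 2 of the 17 and below them for 7, against 22.1% and 26% of all genes. The median level of the 17 stood at the 76.6th percentile, and 48.2% of all genes at or above the median gene were called. Centring on the poly-A controls gave 1 higher and 14 lower. EHMT2, a histone H3 methyltransferase, had a log2 fold of -0.43 with adjusted p = 0.0173 in limma, a call lost without any 1 of DMSO 1, DMSO 2, DMSO 3 or SAHA 1, and where probe sets were averaged (-0.11, adjusted p = 0.223). The deacetylases HDAC1 and HDAC2 had 0.03 and 0.36 with adjusted p = 0.741 and 0.089 in limma. HDAC2 passed in 3 of 17 alternatives, with probe sets averaged (0.0345), quantile normalization again (0.0433) and dim genes left out (0.0407). With poly-A centring HDAC2 had -0.02. RCOR1 and SIN3A, the scaffolds of the corepressor complexes, had -0.12 and -0.07, and KDM1A 0.12, with adjusted p of 0.453, 0.44 and 0.345.

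Other neuronal genes came from lists drawn up alongside the members. The median level of each list here and in the next paragraph lay below the median gene. Of all genes below the median gene, 10.7% were called. Of 36 other synaptic vesicle and exocytosis genes 7 were higher and 1 lower, 22.2% against the 29.6% of all genes, and poly-A centring gave 3 higher and 27 lower. The highest were RAB3D, a GTPase of secretory granules (log2 fold 1.18, adjusted p = 0.000491 in limma), and SNAP23, the SNAP25 relative of non-neuronal cells (1.08, 0.00151). PCLO, an active zone scaffold, had 0.76 and SYT17, a synaptotagmin, 0.60, with adjusted p = 0.00752 and 0.0131. The PCLO call was lost without SAHA 1 or SAHA 2, and the SYT17 call without any 1 of DMSO 2, DMSO 3, SAHA 1 or SAHA 2. Among 20 other channels and receptors 0 were higher and 1 lower, 5% against 29.6% of all genes, and all 20 were lower with poly-A centring. The 1 lower on the deposited scale was the sodium channel SCN2A (-0.37, adjusted p = 0.024 in limma). That call was lost without any 1 of SAHA 1 and the DMSO arrays. The 25 other cytoskeleton, axon and adhesion genes had 2 higher and 1 lower, 12% against 29.6% of all genes. With poly-A centring 2 were higher and 20 lower. Called on the deposited scale were TAGLN3, a neuronal transgelin (1.16, 0.00377), BEX2, a relative of BEX1 (0.89, 0.00146), and STMN3, a relative of STMN2 (-0.91, 0.000763).

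Of 12 proneural transcription factors 0 passed in limma, against 29.6% of all genes, and poly-A centring gave 10 lower. At an unadjusted p under 0.05 in limma were 2 of the 12, against 7587 of all 19775 genes. The POU factors POU3F2 and POU3F3 had the largest differences, 0.43 (adjusted p = 0.109) and -0.31 (0.103). Genes of other tissues were set beside them. Of 14 glial genes 1 was higher and 2 lower, 21.4% against 29.6% of all genes, and poly-A centring gave 1 higher and 12 lower. SLC1A3, a glial glutamate transporter, had a log2 fold of 2.52 (adjusted p = 0.000826 in limma), and the myelin genes MBP and CNP had -0.83 (0.00494) and -0.68 (0.0029), CNP giving -0.13 (0.336) where shared-sequence probe sets were left out. Of 13 liver genes 0 were higher and 1 lower, 7.69% against 29.6% of all genes, and poly-A centring gave 12 lower. The 1 lower on the deposited scale was the apolipoprotein gene APOA1 (-0.26, adjusted p = 0.0274 in limma). That call was lost without any 1 of SAHA 1, SAHA 2, DMSO 2 or DMSO 3. Of 13 skeletal muscle genes 0 passed in limma, against 29.6% of all genes, while poly-A centring gave 12 lower. An unadjusted p under 0.05 in limma was seen in 0 of the 13, against 7587 of all 19775 genes. The troponin genes TNNC2 and TNNI2 had the largest differences, -0.26 (adjusted p = 0.206) and -0.18 (0.495).

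**Figure D5:**
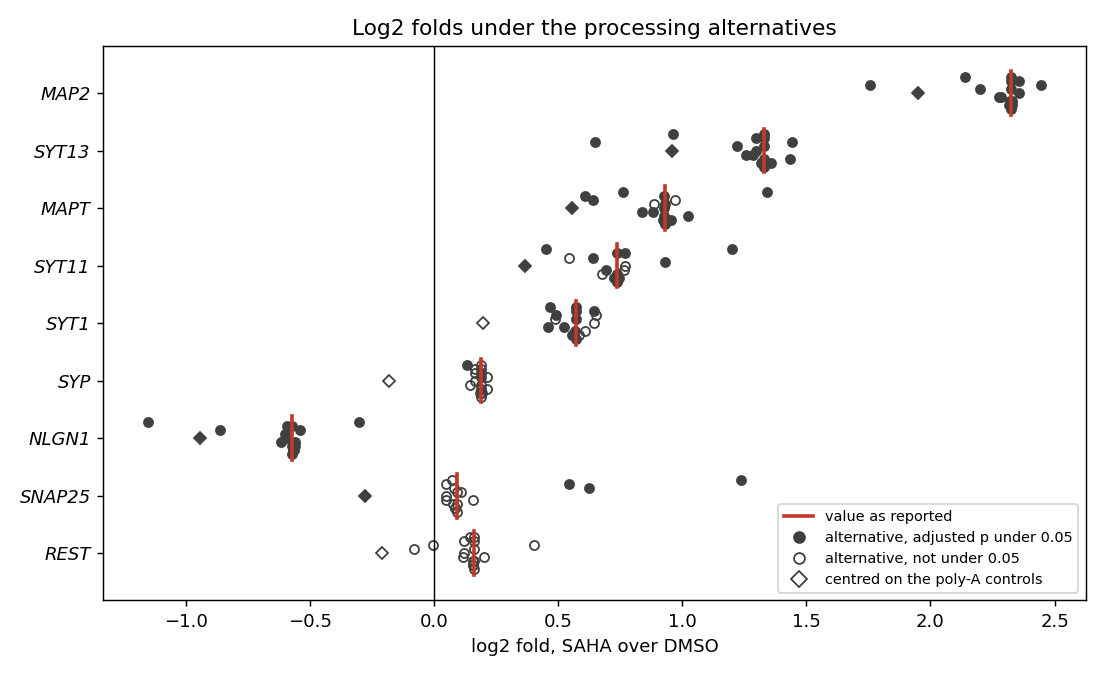
Log2 fold, SAHA over DMSO, of 9 members under the main setting and each alternative, with filled points for values past the threshold. MAP2 and SYT13 are called in all 17 alternatives, and REST in none.

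Genes that mark the cell line were read in both groups, and without detection calls the arrays do not show which are absent. The mesenchymal genes VIM and AXL, known to be high in MDA-MB-231, averaged 13.85 and 13.62 as log2 intensity in SAHA, against 13.97 and 13.95 in DMSO, and AXL fell (log2 fold -0.33, adjusted p = 0.0193 in limma). CD44 and CAV1, known likewise, had log2 folds of 0.24 and -0.21 and did not pass. Of the epithelial and receptor genes, CDH1, the epithelial cadherin, rose, with a mean of 6.31 in SAHA against 4.67 in DMSO (log2 fold 1.64, adjusted p = 0.00259). ERBB2, a growth factor receptor, and EPCAM, an epithelial adhesion molecule, fell by 0.64 and 0.72 on the log2 scale (adjusted p = 0.0125 and 0.0102). The hormone receptors ESR1 and PGR had -0.03 and 0.02 and did not pass. Whether these marker changes bear on the neuronal genes was not tested. Pearson's r across genes was 0.9972 to 0.9986 between arrays of a group and 0.9791 to 0.9801 between SAHA and DMSO arrays. Median intensity was 88.8 and 91.2 on the SAHA arrays, against 89.98, 90.3 and 90.11 on the DMSO arrays. The 3′ to 5′ difference of the actin gene ACTB, a sign of RNA quality, was 2.16 and 2.04 in SAHA, against 3.29, 2.08 and 2.22 in DMSO on the log2 scale, with DMSO 1 apart. Without DMSO 1, MAP2, SYT13, MAPT and NLGN1 kept their calls, SYT11, SYT1 and SYP did not, and the part of RNA quality in these was not tested.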

How the data were processed

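The authors deposited linear intensity values for 54675 probe sets on 5 arrays, made with RMA in R 2.12 per the submitters' processing notes. RMA corrects background, normalizes quantiles between arrays and summarises probes, so a shift shared by all transcripts is removed. The design had allowed for log2 values, and log2 was therefore taken here. The brightest probe set with 1 gene symbol stood for each gene, with no filter on level, and the 1801 probe sets with several genes and 11721 with none were left out. The SAHA minus DMSO contrast was fitted by limma 3.58.1 under R 4.3.3 (functions lmFit and eBayes, two-sided, 3 residual and 1.62 prior degrees of freedom) and Benjamini-Hochberg adjustment over 19775 genes at 0.05. Tables were read with the data.table package (version 1.17.8) and figures drawn with matplotlib 3.10.9. The limma fit was tested on simulated data. Precision is limited by the number of arrays, and signal over background is unknown.

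The members, lists and tests were chosen with earlier results of these data known. Values are given per array for called members, for REST and for a few chosen after their values were seen (SYN1, GAP43, RAB3A, SV2A, NEFM, NRXN2, L1CAM, GRIA2 and SNAP25). From each other list up to 4 called genes with the largest absolute log2 fold were named, or 2 where none passed, with a fixed panel of corepressors. Alternatives covered scaling, the choice of probe set, removal of dim genes (mean under the 40th percentile), variance models, array weights, each array left out, a replicate block, an offset of 50 before log2, and a threshold of 0.01. Shared-sequence probe sets are those named _x_at or _s_at.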

Additional observations from a re-analysis of the deposited data

How the results depend on the processing

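Of the 35 genes, MAP2, SYT13 and NLGN1 kept their calls under every alternative that measured them. Centring on ribosomal protein genes put the members' median log2 fold at -0.0636, against -0.0751 over all genes. Centring on the poly-A controls gave 25 lower members, a member median of -0.39, and 1361 higher and 14548 lower genes overall. Values that turned sign there were -0.31 for CACNA1B, -0.31 for CPLX2, -0.34 for HDAC1, -0.29 for INA, -0.28 for SNAP25, -0.18 for SYP, -0.30 for SYT5, -0.21 for REST, -0.19 for RAB3A, -0.23 for L1CAM, -0.09 for CPLX1, -0.25 for KDM1A and -0.02 for HDAC2, the last 6 without a call on either scale. Without dim genes 13 members were left, with 5 higher and 0 lower, since NLGN1 was among those removed. Of all genes kept there, 2721 were higher and 3175 lower. The member median was 0.16, against -0.0265 over all genes kept. At a threshold of 0.01, 3 members were higher, and 1544 genes overall were higher and 1773 lower. With 1 array left out, 2 to 4 members were higher and 1 to 5 lower, and the member median ran from -0.03 to 0.02. Overall 1769 to 2234 genes were then higher and 1985 to 2797 lower. A left-out SAHA array leaves 1 SAHA array, which is assumed to vary like the DMSO arrays. With the replicate block, 5 members were higher and 1 lower, and 1262 genes overall were higher and 1316 lower. Among the genes named, the block ended the calls of SYP (adjusted p = 0.229), EHMT2 (0.118), PCLO (0.0537), SYT17 (0.113), SCN2A (0.166), TAGLN3 (0.0679) and APOA1 (0.189). Arrays with the same number correlated in their deviations at 0.15 and -0.07 over 2 shared numbers, which does not settle a pairing. Causes of these differences were not tested. Another background correction was not run, since probe-level values were not used here, and without detection calls the signal over background of dim members is unknown.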
